A study of Mus musculus with 12 samples.

Results

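Tyrosine and phenylalanine catabolism was followed in mouse kidney cortex through 7 genes, Qdpr, Pcbd1, Tat, Hpd, Hgd, Gstz1 and Fah, of the 37681 genes in the count table. The pathway was chosen by the read counts of TG+ against TG- mice, with that difference already known, and its members were then taken by gene symbol. Their values in that contrast are therefore given as a description, with no test. All 7 had a row in the table, and 6 passed the filter on low counts that left 19399 genes for testing. Tat did not pass.

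The RNAseq libraries came from 3 TRACK mice (TG+, transgene γ-HIF1αM3) and 3 wild-type littermates (TG-), all C57BL/6 males 18 months old, with no other treatment. TRACK mice carry a mutated, constitutively active form of the transcription factor HIF1α that is expressed in the proximal tubules, and they serve as a model of clear cell renal cell carcinoma. RNA was taken from a thin slice of cortex of both kidneys of each mouse, which gave 12 libraries, and the 2 kidneys of a mouse were summed so that the mouse was the unit. The TG+ mice are numbered 43-29, 43-49 and 43-75 and the TG- mice 43-26, 43-50 and 43-76, and values per mouse follow that order.

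Tyrosine is broken down in the liver and in the proximal tubule of the kidney. Pcbd1 and Qdpr regenerate tetrahydrobiopterin (BH4), the cofactor used up when tyrosine is formed from phenylalanine. Tat then removes the amino group, Hpd turns 4-hydroxyphenylpyruvate into homogentisate, Hgd opens its ring, Gstz1 isomerizes maleylacetoacetate, and Fah splits fumarylacetoacetate into fumarate and acetoacetate. Inherited loss of Fah, Tat or Hpd causes the tyrosinemias, and loss of Hgd causes alkaptonuria.

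Per mouse, 48052131 to 53275152 reads were counted on genes in TG+ and 50570271 to 60506785 in TG-. Levels are given as CPM, read counts relative to library size after TMM normalization, unless RPKM is named, in which reads are also divided by the length of the gene. In bulk tissue, fewer cells of a type and less RNA per cell cannot be told apart. The biological coefficient of variation was 0.114 between mice of a genotype. Reads on Hif1a itself differed by -0.12 on the log2 scale (edgeR, adjusted p = 0.343, standard error 0.09), and whether transgene reads were counted on that gene is not given in the sources used here.

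The members' upstream sequences are shown because the transgene encodes a factor that binds the hypoxia response core. The window was the 250 bases before the gene start in RefSeq (GRCm38.p6), and all 7 members had an entry, Gstz1 with 2 starts, which made 8 windows. The core was searched on both strands as ACGTG and GCGTG and the E box as CACGTG, which contains the first of these. The core was found in 4 of the 8 windows, against 38.6% of all 32851 windows in the table. Qdpr held the core at 5 places, 193, 149, 121, 90 and 48 bases before the start, Pcbd1 at 2 places, and Tat and Fah at 1 place each. Hpd, Hgd and both Gstz1 windows held none of these letters. The E box was in 0 of the 8 windows (6.02% of all windows). Below are the windows of Hpd, the member with the largest difference, at chr5:123182724-123182973 on the minus strand, of Qdpr, the one with the most cores, at chr5:45450230-45450479 on the minus strand, and of Fah, the last enzyme, at chr7:84605943-84606192 on the minus strand. The RefSeq starts of all 3 genes lie inside the GENCODE ranges given further on, so that the Qdpr and Hpd windows overlap those ranges by a few bases and the Fah window lies wholly within its range. All 3 windows are written 5′ to 3′ along the gene, with the core of either strand in capitals.
Hpd: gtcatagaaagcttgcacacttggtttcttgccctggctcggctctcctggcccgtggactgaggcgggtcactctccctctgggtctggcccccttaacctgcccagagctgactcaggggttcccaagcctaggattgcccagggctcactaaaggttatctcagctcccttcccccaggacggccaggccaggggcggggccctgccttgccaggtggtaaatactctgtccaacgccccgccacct
Qdpr: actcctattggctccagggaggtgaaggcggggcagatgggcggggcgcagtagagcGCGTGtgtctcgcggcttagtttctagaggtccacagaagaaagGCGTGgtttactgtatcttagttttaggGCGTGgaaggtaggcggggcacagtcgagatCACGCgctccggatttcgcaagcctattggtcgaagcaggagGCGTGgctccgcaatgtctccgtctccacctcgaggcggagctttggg
Fah: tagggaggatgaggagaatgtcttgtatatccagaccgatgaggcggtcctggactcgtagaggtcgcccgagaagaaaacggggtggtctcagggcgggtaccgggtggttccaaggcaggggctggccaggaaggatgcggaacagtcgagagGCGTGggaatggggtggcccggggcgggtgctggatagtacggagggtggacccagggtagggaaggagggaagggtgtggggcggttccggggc
The Hpd window has no capitals because neither form of the core is in it. A match of letters is a description and no evidence of binding.

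Of the 6 members tested, all 6 had lower levels in TG+ cortex, and in each of them every TG+ mouse lay below every TG- mouse, as was so for 20.8% of all tested genes. Hpd stood apart, with a level in TG+ that was 87.1% below TG-, while the other 5 were lower by 13.2% to 30.5%. Since this contrast was known when the members were picked, nothing is read from that count. The median log2 fold change of the 6 members was -0.31, beside 0.01 over all tested genes.

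**Figure D1:**
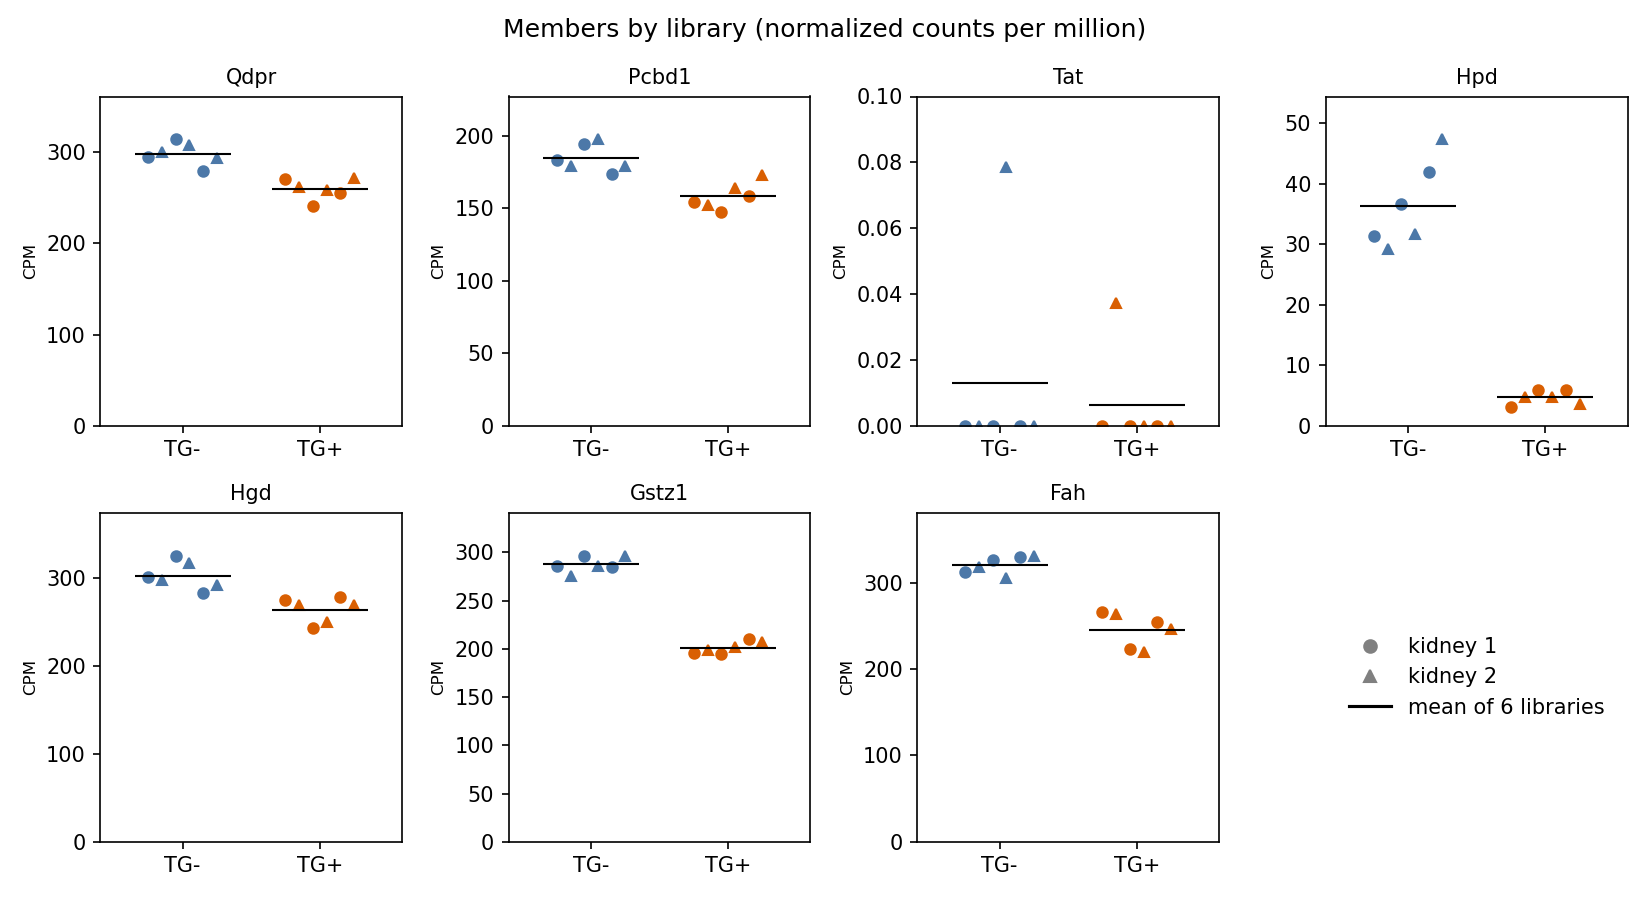
Level of each member (vertical axis, CPM, from 0) in the 12 libraries, TG- in blue and TG+ in orange, with circles for kidney 1, triangles for kidney 2, mice side by side and a line at the mean of 6 libraries. Hpd fell between 3.16 and 5.92 CPM in TG+ libraries and between 29.2 and 47.3 CPM in TG- libraries, whereas Tat had a read in 1 library of each group.

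Qdpr (ENSMUSG00000015806, chromosome 5 from 45434021 to 45450236, minus strand, GRCm38) encodes quinonoid dihydropteridine reductase, which restores BH4 after it has been oxidized. Its levels were 265, 248 and 263 CPM in the TG+ mice. They were 298, 313 and 287 CPM in the TG- mice. The groups did not overlap, but the gap between them was smaller than the range within TG-. The log2 fold change was -0.21 (standard error 0.06, n = 3 mice per genotype).

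Pcbd1 (ENSMUSG00000020098, chromosome 10 from 61089331 to 61094324, plus strand) encodes the pterin-4a-carbinolamine dehydratase that acts one step earlier in the same cycle. The TG+ mice had 153, 155 and 166 CPM. The TG- mice had 182, 197 and 177 CPM. All 3 TG+ mice were lower, with a log2 fold change of -0.23 (standard error 0.06).

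Tat (ENSMUSG00000001670, chromosome 8 from 109990437 to 109999803, plus strand) encodes tyrosine aminotransferase, the first enzyme of tyrosine breakdown proper and a gene of hepatocytes. It had 1 read in TG+, in mouse 43-29, and 2 reads in TG-, in mouse 43-50, and none in the other 4 mice. Both groups were under the floor of 3 reads, so no fold change was computed, and no difference was detectable at this depth.

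Hpd (ENSMUSG00000029445, chromosome 5 from 123171807 to 123182727, minus strand) encodes 4-hydroxyphenylpyruvate dioxygenase. The TG+ mice had 4.04, 5.34 and 4.72 CPM, from 200, 303 and 237 reads. The TG- mice had 30.4, 34.5 and 44.7 CPM, from 1557, 1972 and 2183 reads. The lowest TG- mouse thus lay far above the highest TG+ mouse, although mice of 1 genotype differed more among themselves than for the other 5 members (SD 0.26 on the log2 scale, pooled over both genotypes). The log2 fold change was -2.95 (standard error 0.17), a level 7.75-fold lower in TG+, and it was the lowest log2 fold change of all 19399 genes tested. It lay between -3.07 and -2.79 when each mouse was left out in turn.

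Hpd lies among other genes, and how reads of overlapping genes were assigned is not given in the sources used here. It overlaps Gm26745 on its own strand, which was not tested, and Psmd9, a proteasome assembly chaperone on the opposite strand. Psmd9 fell by 0.22 on the log2 scale (edgeR, adjusted p = 0.0269), a call lost under library size alone (-0.10, adjusted p = 0.206), in kidney 2 alone (-0.13, adjusted p = 0.218) and without any 1 mouse but 43-49 (-0.24 to -0.19, adjusted p 0.0507 to 0.0926). The nearest tested protein-coding genes on either side differed less, with -0.04 for Setd1b (adjusted p = 0.817) and 0.05 for Wdr66 (adjusted p = 0.867).

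Hgd (ENSMUSG00000022821, chromosome 16 from 37580153 to 37632020, plus strand) encodes homogentisate 1,2-dioxygenase, the step after Hpd. The TG+ mice had 271, 245 and 273 CPM. The TG- mice had 300, 323 and 287 CPM. The groups were separate by a narrow margin, and the log2 fold change, -0.20 (standard error 0.07), was the smallest of the 6.

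Gstz1 (ENSMUSG00000021033, chromosome 12 from 87147165 to 87164723, plus strand) encodes maleylacetoacetate isomerase, a glutathione transferase of the zeta class. The TG+ mice had 197, 197 and 208 CPM. The TG- mice had 282, 293 and 291 CPM. Mice of a genotype lay close together and the groups far apart, with a log2 fold change of -0.52 (standard error 0.05). Gstz1 overlaps Pomt2 on the opposite strand and Gm6566, which was not tested. Pomt2 fell by 0.22 on the log2 scale (edgeR, adjusted p = 0.0259), a call lost under library size alone (-0.10, adjusted p = 0.212), in kidney 2 alone (-0.18, adjusted p = 0.0767) and without 43-29, 43-49, 43-50 or 43-76 (-0.24 to -0.19, adjusted p 0.0517 to 0.0972).

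Fah (ENSMUSG00000030630, chromosome 7 from 84585159 to 84606722, minus strand) encodes fumarylacetoacetase, the last enzyme. The TG+ mice had 264, 221 and 250 CPM. The TG- mice had 315, 318 and 331 CPM. Mouse 43-49 was the lowest, and the whole TG+ group was below the TG- range. The log2 fold change was -0.39 (standard error 0.07).

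The scaling shifted all 6 members alike. With libraries scaled by size alone, the median of all tested genes moved up by 0.12 on the log2 scale, and the log2 fold changes became -0.09 for Qdpr, -0.11 for Pcbd1, -0.09 for Hgd, -0.27 for Fah, -0.40 for Gstz1 and -2.83 for Hpd. Relative to the median gene the values were the same to 2 decimals for Qdpr (-0.22), Pcbd1 (-0.24), Hgd (-0.22) and Gstz1 (-0.54), and went from -0.40 to -0.41 for Fah and from -2.97 to -2.96 for Hpd. All 6 remained below 0 under TMM, DESeq2, upper-quartile and library-size scaling.

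Per length, the enzymes fell into a wide range in TG- cortex. In the deposited RPKM, averaged over both kidneys, Pcbd1 was highest at 232 ± 12.7 (SD, n = 3 mice), followed by Gstz1 at 176 ± 3.53 and Fah at 108 ± 2.94. Qdpr at 54.9 ± 2.29 and Hgd at 53.8 ± 3.07 had overlapping ranges and could not be put in order. Hpd was the lowest detected member at 8.60 ± 1.76, and even so it was above 75.7% of all tested genes. In TG+ cortex the order was the same, from 193 ± 9.06 for Pcbd1 and 120 ± 4.26 for Gstz1 to 1.08 ± 0.156 for Hpd. In both genotypes Hpd was therefore the least abundant transcript among the detected steps.

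**Figure D2:**
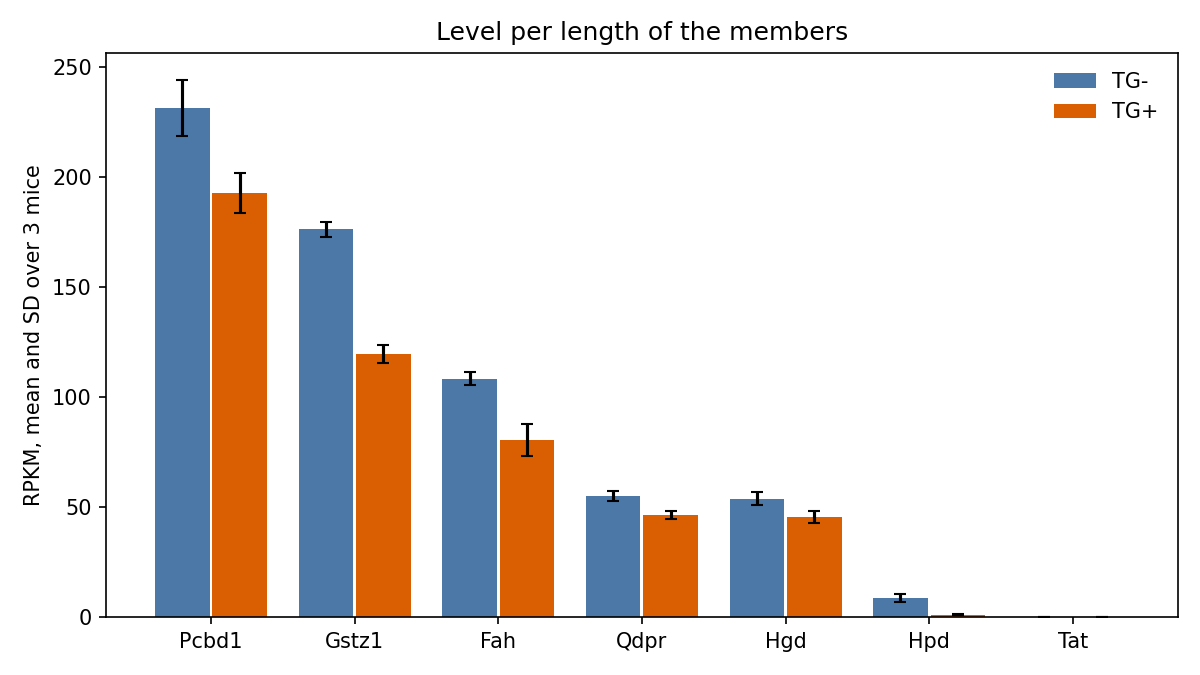
Mean level per length (vertical axis, RPKM, from 0) of each member in TG- (blue) and TG+ (orange), with error bars for the SD over 3 mice. Pcbd1 was the highest in both genotypes at 232 and 193 RPKM, and Hpd went from 8.60 in TG- to 1.08 in TG+.

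The 2 kidneys of a mouse gave a comparison that the choice of genes had not used. Kidney 2 was set against kidney 1 over all 12 libraries with the mouse as a block, and the labels do not say which is left or right. Of the 6 members tested, 0 were called at an adjusted p below 0.05 by edgeR, where 0.0158% of 18944 tested genes were called. Those were 3 genes, Hbb-bs, Hbb-bt and Alas2, all of red blood cells and higher in kidney 2, while 1050 genes had an unadjusted p below 0.05. The fitted log2 differences of the members lay between -0.08 (Hpd, standard error 0.09) and 0.05 (Pcbd1, standard error 0.03), with adjusted p from 0.894 to 1.00.

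Within single mice Hpd varied most. Its kidney 2 was higher by 0.60 on the log2 scale in 43-29, and its log2 difference was -0.76 in 43-75, both TG+ mice in which Hpd rested on 71 to 151 reads per library. For the other 5 genes no mouse differed between its kidneys by more than 0.16.

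**Figure D3:**
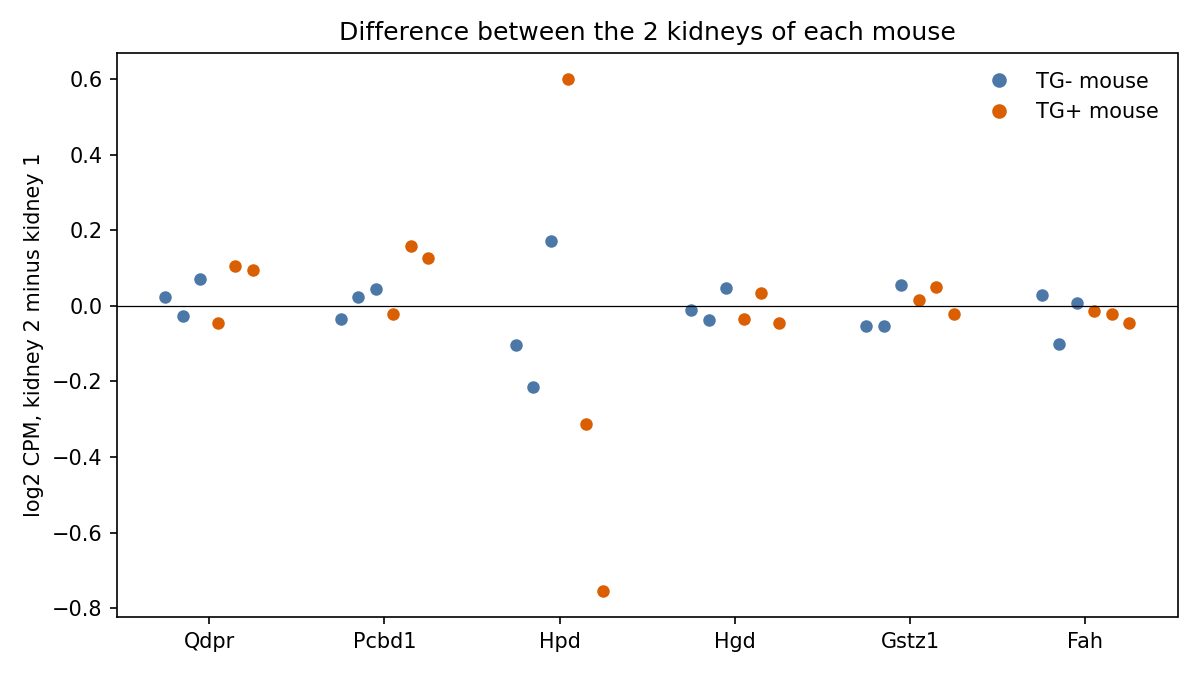
Difference in log2 CPM between kidney 2 and kidney 1 (vertical axis) of each mouse for the 6 tested members, TG- mice in blue and TG+ mice in orange. Hpd ranged from -0.76 to 0.60, whereas the other 5 members stayed within 0.16 of 0.

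The members did not vary as a block among mice of 1 genotype. After each genotype's mean was subtracted from log2(CPM + 0.5), Pearson's r over the 12 libraries lay between -0.70 (Qdpr with Hpd) and 0.81 (Qdpr with Hgd) for the 15 pairs. Qdpr and Pcbd1, which work in the same cofactor cycle, had r = 0.75, whereas Hpd and Hgd, which catalyze successive steps, had r = -0.42. These are descriptions, since the libraries are pairs from 6 mice and share depth and scaling. Among genes above 10 CPM, the nearest to each member by the same measure were Atp5g3 (0.97) and Gm21981 (0.95) for Qdpr, Sqor (0.94) and Tm2d2 (0.94) for Pcbd1, and Inpp4a (0.93) and Uros (0.92) for Hpd. For Hgd they were Pepd (0.95) and Ypel2 (0.95), for Gstz1 Mrpl39 (0.90) and Zfp874a (0.89), and for Fah Pkm (0.99) and Hpn (0.97). The measure leaves out the difference between the genotypes. In that difference Pkm (log2 fold change 2.57), Ypel2 (0.36), Gm21981 (0.21) and Pepd (0.19) lay above 0, and the other nearest genes lay below 0.

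Of 38 related genes in 5 lists (BH4 supply, transamination, other fates of tyrosine, use of fumarate and acetoacetate, and transport of aromatic amino acids), 31 were tested. At an adjusted p below 0.05 (edgeR, over all tested genes), 12 were lower in TG+, 3 were higher and 16 were not called, where 10.9% of all tested genes were called lower and 15.4% higher. At the threshold of the study (adjusted p below 0.01 and fold change below 0.5 or above 2), 0 were lower and 2 were higher (0.211% and 3.77% of all tested genes). Their median log2 fold change was -0.18, beside 0.01 for all tested genes. With each kidney as its own library, which counts both kidneys of a mouse as separate samples, Got1, Maoa, Fh1, Aacs, Slc3a2 and Slc43a1 were called as well (adjusted p 0.00284 to 0.0498), as were Fh1 and Bdh1 by DESeq2 (adjusted p = 0.0407 and 0.0437). Every TG+ mouse lay below every TG- mouse in 17 of the 31, and above in 4 (20.8% and 23.4% of all tested genes).

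**Figure D4:**
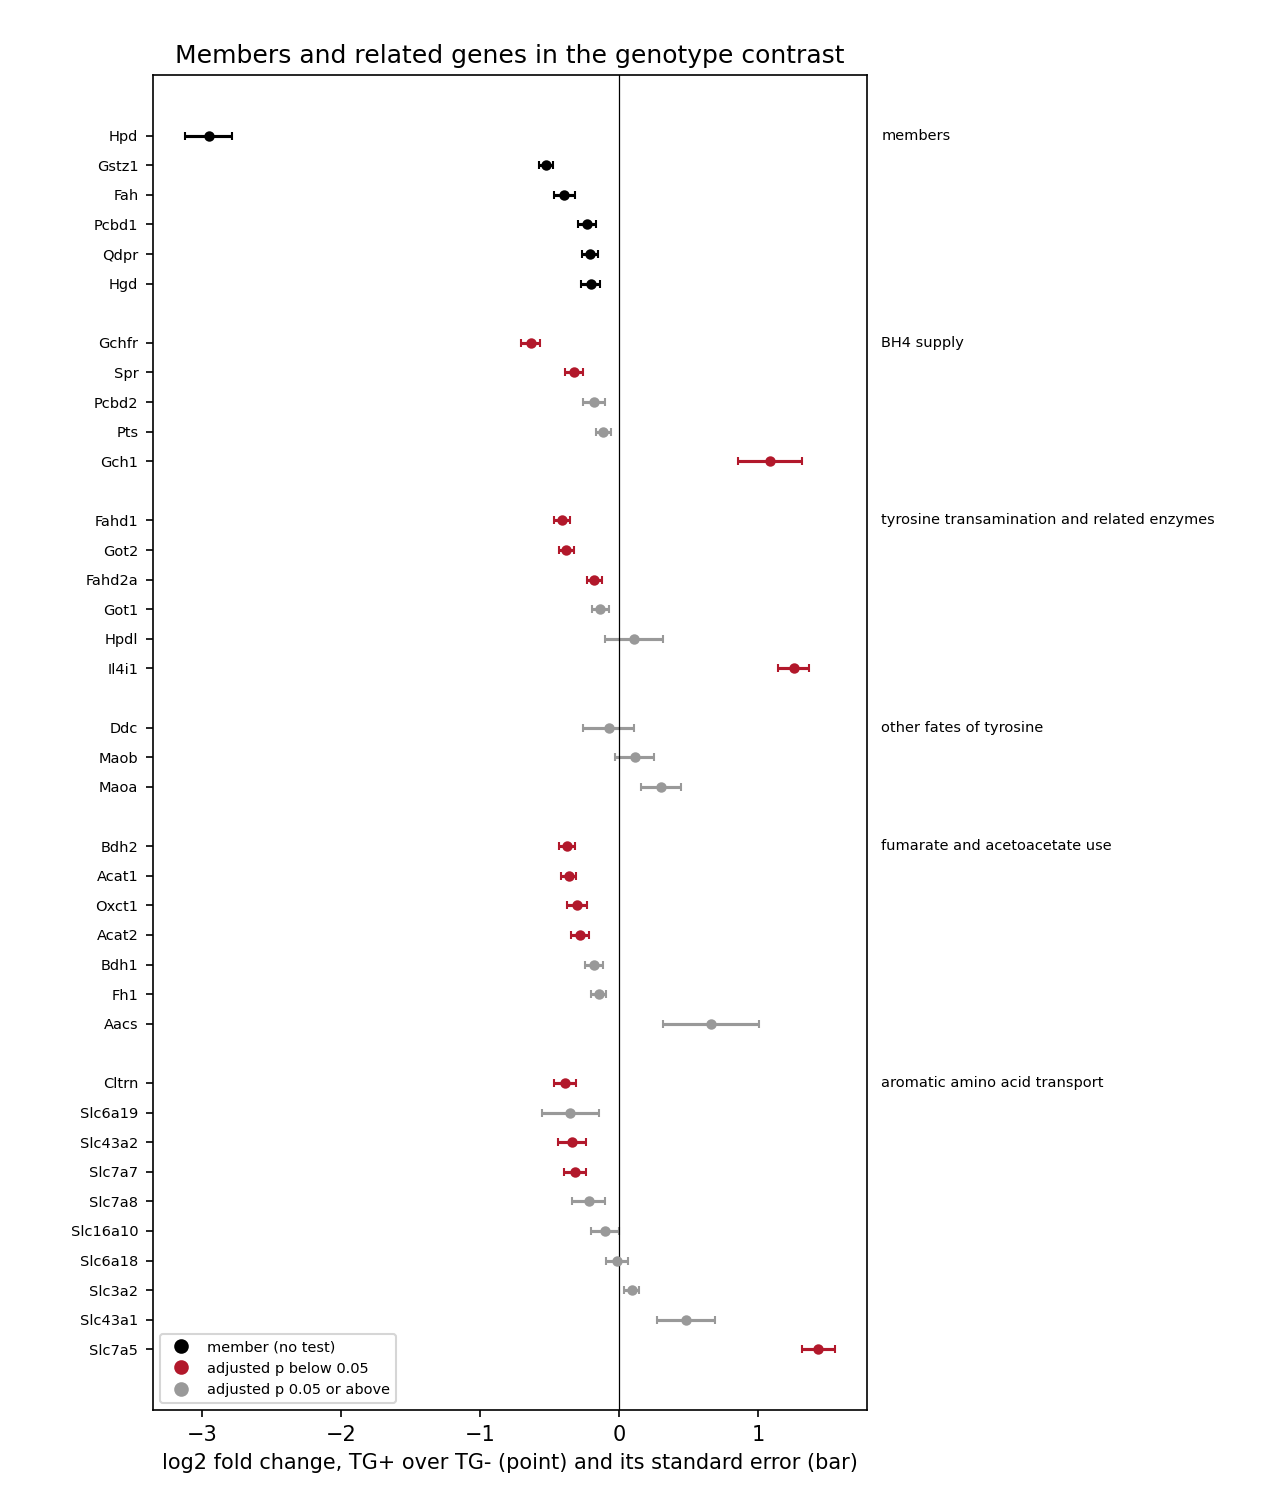
Log2 fold change of TG+ over TG- (horizontal axis) with its standard error for the 6 tested members (black, no test) and the 31 tested related genes, in red where the adjusted p was below 0.05 and in grey otherwise. Hpd lies at -2.95, and the related genes lie between -0.64 (Gchfr) and 1.43 (Slc7a5).

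Among the 5 genes of BH4 supply, 2 fell and 1 rose. Gchfr, the feedback regulator of GTP cyclohydrolase, fell by 0.64 on the log2 scale (adjusted p = 0.000612), and Spr, sepiapterin reductase, fell by 0.33 (adjusted p = 0.00955). Gch1, GTP cyclohydrolase itself and the first step of BH4 synthesis, rose by 1.09 (adjusted p = 0.0124) from a low level, 1.10 CPM in TG- to 2.34 CPM in TG+. Pcbd2 (-0.18) and Pts (-0.11) were not called, although in kidney 1 alone Pcbd2 was (-0.32, adjusted p = 0.0447), and in kidney 2 alone it had -0.05 (adjusted p = 0.765).

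With Tat at the floor, the list of transamination and related enzymes was read. Got2, the mitochondrial aspartate aminotransferase, fell by 0.38 on the log2 scale (adjusted p = 0.00202), while cytosolic Got1 had -0.13 (adjusted p = 0.136). Il4i1, a secreted oxidase of aromatic amino acids made by immune cells, rose by 1.26 (adjusted p = 0.000279), from 2.65 to 6.34 CPM. The members of the fumarylacetoacetase family Fahd1 and Fahd2a fell by 0.41 and 0.18 (adjusted p = 0.00224 and 0.0482). The call of Fahd2a was lost under 9 of 15 alternatives, with -0.06 (adjusted p = 0.433) under library size alone and adjusted p from 0.0962 to 0.118 without 43-29, 43-49, 43-26, 43-50 or 43-76, where the log2 fold change was -0.19 to -0.15. Hpdl, a relative of Hpd, had 0.11, between -0.10 and 0.22 with a mouse left out, and was not called. Got1l1 had 3, 6 and 6 reads in the TG+ mice and 0 in each TG- mouse, and was not tested.

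Of 9 genes of the other fates of tyrosine, 3 were tested and none was called. Ddc (-0.07), Maoa (0.30) and Maob (0.11), which make or degrade amines, were uncalled, and Maoa ranged from 0.18 (adjusted p = 0.374) without 43-26 to 0.47 (adjusted p = 0.0315) without 43-50. With a mouse left out, Ddc lay between -0.20 and 0.11 and Maob between -0.04 and 0.19. Th, Dbh and Pnmt, of catecholamine synthesis, had 0 reads in every library, and Tyr, Dct and Tyrp1, of melanin synthesis, had at most 2 reads in any mouse.

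Downstream, 4 of 7 genes for the use of fumarate and acetoacetate fell and none rose. Bdh2 fell by 0.38, Acat1 by 0.36, Oxct1 by 0.30 and Acat2 by 0.28 on the log2 scale, with adjusted p from 0.00276 to 0.0209. Oxct1, which activates acetoacetate with coenzyme A, had 1507 CPM in TG- and 1222 CPM in TG+. Fh1, fumarase, had -0.15 (adjusted p = 0.0738), Bdh1 -0.18 (adjusted p = 0.0742) and Aacs 0.66 (adjusted p = 0.201). Aacs ranged from 0.36 without 43-26 to 0.94 without 43-50, and was 0.44 without 43-49. The call of Oxct1 was lost without 43-29 (-0.28, adjusted p = 0.0620) or 43-76 (-0.32, adjusted p = 0.0563), and that of Acat2 without 43-75 (-0.26, adjusted p = 0.0520) or 43-50 (-0.24, adjusted p = 0.0529). Both were also lost under library size alone, with -0.18 for Oxct1 (adjusted p = 0.0771) and -0.16 for Acat2 (adjusted p = 0.1001), and Acat2 in kidney 2 alone (-0.20, adjusted p = 0.0799).

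Of the 10 transport genes, 3 fell and 1 rose. Cltrn, collectrin, which carries the apical neutral amino acid transporters to the membrane, fell by 0.39 (adjusted p = 0.00991), Slc43a2 by 0.34 (adjusted p = 0.0385) and Slc7a7 by 0.32 (adjusted p = 0.0247). Slc7a5, the LAT1 transporter of large neutral amino acids, rose by 1.43 (adjusted p = 0.0002) from 3.01 to 8.12 CPM. Its partner chain Slc3a2 had 0.09, and Slc6a19 (-0.35), Slc7a8 (-0.22), Slc16a10 (-0.10), Slc6a18 (-0.02) and Slc43a1 (0.48) were not called either. Several of these values depended on single mice or on the scaling. Slc43a2 and Slc7a7 were not called without 43-29, 43-49, 43-50 or 43-76, with adjusted p from 0.0562 to 0.110 and log2 fold changes of -0.37 to -0.25. Under library size alone Slc43a2 had -0.22 (adjusted p = 0.142) and Slc7a7 -0.20 (adjusted p = 0.0836), and in kidney 2 alone -0.30 and -0.25 (adjusted p = 0.0621 and 0.0799). Slc3a2 had 0.05 without 43-75, and was called under library size alone (0.21, adjusted p = 0.0193). Slc7a8 was called without 43-75 (-0.39, adjusted p = 0.0119) and had -0.13 without 43-49, and Slc43a1 was called without 43-29 (0.64, adjusted p = 0.0490). Slc6a19 ranged from -0.54 without 43-75 to -0.14 without 43-49, Slc16a10 from -0.19 without 43-49 to -0.0015 without 43-29, and Slc6a18 from -0.09 without 43-76 to 0.06 without 43-26.

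Of 9 transcription factors of the hepatic and proximal tubule lineages, 7 were tested and 3 were called, all lower, where 10.9% of all tested genes were called lower and 15.4% higher. Hnf4a fell by 0.33 (adjusted p = 0.0395), Nr3c1, the glucocorticoid receptor, by 0.32 (adjusted p = 0.0181) and Ppara by 0.55 (adjusted p = 0.0405). Of the 7 tested, 5 lay below 0, and the list's median was -0.33. All 3 calls were lost under library size alone, with -0.21, -0.20 and -0.43 (adjusted p = 0.121, 0.0622 and 0.0950), and that of Hnf4a in kidney 1 alone (-0.32, adjusted p = 0.0583). With a mouse left out, Hnf4a was not called in 5 of 6 cases (all but 43-29, adjusted p 0.0565 to 0.115), Nr3c1 without 43-29 or 43-50 (adjusted p = 0.0541 and 0.0549), and Ppara without 43-29, 43-75, 43-50 or 43-76 (adjusted p 0.0988 to 0.118). The log2 fold changes then lay between -0.44 and -0.26 for Hnf4a, -0.39 and -0.26 for Nr3c1, and -0.72 and -0.39 for Ppara. Among the uncalled factors, Cebpa (0.44) and Cebpb (0.37) lay above 0 (edgeR, adjusted p = 0.0746 and 0.369).

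Markers of the proximal tubule were set beside the members in the same fit. Of 18 markers, 18 had a log2 fold change below 0, with a median of -0.44. At an adjusted p below 0.05, 11 were called lower, beside 10.9% of all tested genes. At the threshold of the study 2 were lower, beside 0.211% of all tested genes. The 18 markers summed to 37819 to 41629 CPM in TG+ and 50964 to 55206 CPM in TG-. Kap, the most abundant, had -0.08 (adjusted p = 0.528) and Slc22a6 the lowest value, -1.09 (adjusted p = 4.82e-05). The 5 members other than Hpd lay between -0.20 and -0.52, and Hpd at -2.95 was below the lowest of the 18 markers. The part of the proximal tubule markers in the members' values was not tested.

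Markers of other cells were counted in the same fit. At an adjusted p below 0.05 it called 15.4% of all tested genes higher and 10.9% lower. In the other nephron segments 1 of 12 was called, Podxl, higher by 0.37, with a median of 0.10 and a summed level of 4107 to 5490 CPM in TG+ and 4325 to 4471 in TG-. Immune markers were called higher in 9 of 12 (median 1.10, summed level 828 to 1274 CPM in TG+ and 248 to 285 CPM in TG-), with Igkc at 2.27 and Cd8a lowest at 0.14. Igkc alone gave 714 to 1179 CPM of the TG+ sum and 176 to 230 CPM of the TG- sum, and the other 11 summed to 94.7 to 114 CPM in TG+ and 40.7 to 72.2 CPM in TG-. Tubule injury markers were called higher in 5 of 9 (median 1.12, summed level 1006 to 1189 CPM in TG+ and 821 to 1031 CPM in TG-), with Havcr1 at 2.78 and Spp1 lowest at 0.12. Of 10 liver markers, 7 were tested and 3 were called higher (median 0.47, summed level 628 to 916 CPM in TG+ and 60.6 to 118 CPM in TG-). Apoc3 carried most of the TG+ sum, with 493 to 782 CPM against 3.45 to 6.34 CPM in TG-, and without it the list summed to 117 to 135 CPM in TG+ and 56.3 to 114 CPM in TG-. Apoc3 was the highest at 7.14, Ttr, the most abundant in TG-, was at 1.42 and Fga lowest at -0.41, while Cyp7a1 had 0 reads in every library. The part of these markers in the members' values was not tested.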

How the data were processed

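RNAseq of kidney cortex was used from 12 libraries, the 2 kidneys of 3 TG+ and 3 TG- mice. Single-end reads of 51 bp were made and processed by the authors, for the most part with Tuxedo software. The genome build is mm9 per the labels, and the counting program, annotation release and use of strand are not given in the sources used here. The authors deposited unnormalized read counts per Ensembl gene and library. The deposited RPKM values, scaled by a method the header calls BUQ, were proportional to the count plus 1 (largest relative deviation 9.47e-06) and served for levels per length. Another 12 columns of log2 RPKM were not used, nor were the authors' fold changes, p-values and q-values.

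Counts of both kidneys were summed per mouse, filtered with filterByExpr, and scaled by TMM (factors 0.944 to 1.07). The quasi-likelihood F test of edgeR was run on 19399 genes, and its p-values were adjusted over all of them by the Benjamini-Hochberg method. Versions were R 4.3.3, limma 3.58.1 and edgeR 4.0.16. The kidney contrast had the mouse as a block. Calls were made by the rule of the study, an adjusted p below 0.01 and at least a change of 2 (higher) or 0.5 (lower) in fold, and by an adjusted p below 0.05 alone. The procedure was tested on simulated data.

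Symbols and positions came from GENCODE M21 on GRCm38, in which 32642 of 37681 Ensembl identifiers were found, and Tmem27 of the transport list was matched as Cltrn. Upstream windows came from RefSeq. The members and the lists were chosen with earlier results of these data known, and 5 listed genes, not reported here, were taken out of the lists after their values had been computed, and all counts and medians are those of the shortened lists. Named were all members, every gene of the 5 related lists, the called transcription factors, up to 3 genes of each marker list (most abundant in TG-, highest and lowest fold change) and the 2 genes nearest to each member. The neighbouring and overlapping genes, Hif1a, Cebpa, Cebpb and the 3 genes of the kidney contrast were added after their values were seen. Alternatives were DESeq2 1.42.0, no filter, each kidney as a library, a block for the pairs in the table's name, other scalings, single kidneys and leaving out each mouse. Python 3.11.15, numpy 2.4.6, pandas 2.3.3 and matplotlib 3.10.9 were used for tables and plots.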

Additional observations from a re-analysis of the deposited data

How the results depend on the processing

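All 6 members kept a negative log2 fold change under all 15 alternatives of the genotype contrast. Their median, -0.31, became -0.19 with libraries scaled by size alone and lay between -0.35 and -0.27 when each mouse was left out. Over all genes, the 41 genes lower at the threshold of the study became 22 under library size alone and 29 to 50 with a mouse left out, and the 732 higher became 927 under library size alone and 469 to 633 with a mouse left out, with 469 without 43-76. Without a minimum fold change at an adjusted p below 0.05, 2105 were lower and 2982 higher. Of the 15 related genes called, 10 kept the call under every alternative and 5 lost it under at least 1 (Fahd2a under 9, Slc43a2 and Slc7a7 under 6, Acat2 under 4, Oxct1 under 3), none changing sign, and the number called ranged from 11 to 21. Of the 16 uncalled, 10 gained a call somewhere and 6 changed sign. Under library size alone the log2 fold change of Pts became 0.0053, of Ddc 0.039, of Slc16a10 0.021 and of Slc6a18 0.104, and in kidney 1 only that of Slc6a18 became 0.0221. With a mouse left out, Hpdl ranged from -0.103 to 0.22, Ddc from -0.197 to 0.11, Maob from -0.0448 to 0.193 and Slc6a18 from -0.0867 to 0.0571. The 3 genes of the kidney contrast became 105 with no filter, 0 without the mouse as a replicate block and 0 to 28 with a mouse left out (28 without 43-29, 1 without 43-26, 0 without 43-49, 43-75 or 43-50), and 0 members were called in any of these. The cause of these changes was not tested.

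The name of the deposited table lists the mice as 3 pairs. Deviations from the genotype means correlated at 0.31 (43-29 with 43-26), 0.28 (43-49 with 43-50) and -0.06 (43-75 with 43-76), so the pairing was not established. With these pairs as a replicate block, 785 genes were higher and 48 lower, and the members' median was -0.32. Of the related genes, the block changed 2 calls, with Slc6a19 called lower (log2 fold change -0.39, adjusted p = 0.0264, edgeR) and Fahd2a no longer called (-0.18, adjusted p = 0.0574). For Tat, 1 read in TG+ and 2 reads in TG- allow no comparison.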
